A study of Mus musculus with 7 samples.

Results

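Neuronal RNA-binding regulators of splicing were followed between hippocampal RNA pulled down with tagged ribosomes of Gad2-Cre cells and the RNA left unbound. The members were chosen by gene symbol, as the 10 genes Rbfox1, Rbfox2, Rbfox3, Nova1, Nova2, Elavl2, Elavl3, Elavl4, Ptbp2 and Khdrbs3, of 39017 gene IDs in the deposited table, and all 10 passed the filter on low counts. The mice carried Cre under Gad2 (GAD2 cre+), which marks GABAergic neurons, together with an EGFP-tagged ribosomal protein L10 (L10-EGFP+) that lets ribosomes of the Cre cells be purified. The bound group has 3 libraries (titles GAD_ctrl) from TRAP, translating ribosome affinity purification, and in both groups 2 hippocampi were pooled per library. The unbound group has 4 libraries, 2 with titles starting UBS (replicates 1 and 2) and 2 with titles starting UBGS (replicates 3 and 4), and the labels do not say what these title series are. Age, sex and any pairing of bound with unbound libraries are not given, and nothing says that the libraries of a group came from separate animals, so each p-value here reflects how far libraries of a group scatter, which can be technical.

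Splicing regulators of this kind bind short motifs in pre-mRNA and decide, by where they bind, whether a neighbouring exon is kept or skipped. Rbfox, Nova, neuronal Elavl (Hu) and Ptbp2 proteins are largely restricted to neurons or enriched in them, and the antibody target NeuN, the usual stain for neuronal nuclei, is Rbfox3. Elavl proteins also bind AU-rich and U-rich stretches of mature mRNAs and change their stability and translation. The deposited values are read counts summed over all isoforms of a gene, so they give the level of each regulator's RNA and nothing about which exons were spliced.

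The comparisons between related genes turn on reads being told apart, and the stretch that codes for the RNA recognition motif is strongly conserved between paralogs, so it is shown for both families with 3 members. The lines below are reference coding sequence of GENCODE M21 transcripts (mm10), 5′ to 3′ on the sense strand, around the conserved RNP1 core of the Rbfox motif and of the first Elavl motif. Capitals mark the positions at which the 3 genes of a family are not all identical.
Rbfox1: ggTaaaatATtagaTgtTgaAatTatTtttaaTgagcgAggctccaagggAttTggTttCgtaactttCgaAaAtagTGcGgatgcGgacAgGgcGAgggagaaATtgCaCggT
Rbfox2: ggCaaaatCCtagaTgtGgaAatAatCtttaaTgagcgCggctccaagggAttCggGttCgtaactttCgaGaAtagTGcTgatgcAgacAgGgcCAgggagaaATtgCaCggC
Rbfox3: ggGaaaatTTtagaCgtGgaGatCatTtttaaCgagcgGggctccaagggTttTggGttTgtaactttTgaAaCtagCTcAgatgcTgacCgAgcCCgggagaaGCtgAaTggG
Elavl2: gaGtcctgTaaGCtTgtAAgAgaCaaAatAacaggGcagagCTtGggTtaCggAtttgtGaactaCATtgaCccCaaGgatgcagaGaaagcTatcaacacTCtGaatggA
Elavl3: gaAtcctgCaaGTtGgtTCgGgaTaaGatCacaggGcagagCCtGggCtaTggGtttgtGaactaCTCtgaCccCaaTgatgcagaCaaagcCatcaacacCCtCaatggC
Elavl4: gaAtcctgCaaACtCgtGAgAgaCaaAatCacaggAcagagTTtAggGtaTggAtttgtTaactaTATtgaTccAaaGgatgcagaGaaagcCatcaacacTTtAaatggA

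Within these windows, 30 of 114 positions differed among the Rbfox genes and 31 of 111 among the neuronal Elavl genes. Rbfox1 and Rbfox2 were the closest Rbfox pair at 87.7% identity, and Elavl2 and Elavl4 the closest Elavl pair at 83.8%. The longest identical run between 2 coding sequences of a family was 29 nt, for Rbfox1 with Rbfox2 and for Elavl3 with Elavl4. No stretch of 50 nt in any annotated transcript of a member occurred in a transcript of another member or of the close paralogs Elavl1, Ptbp1, Ptbp3, Khdrbs1 and Khdrbs2. The read length is not given in the sources used here.

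Totals ranged from 38690380 to 51953811 counts per library. Levels are given as CPM, counts scaled to a common library size, after TMM scaling, which sets the typical gene at no change. Groups were compared with edgeR's quasi-likelihood test, adjusted over the 19563 genes tested, with a threshold of 0.05. The summed level of 15 GABAergic neuron markers was 6393 to 8336 CPM in bound libraries and 703.2 to 832 CPM in unbound libraries, and that of 10 excitatory neuron markers 838.4 to 1019 CPM in bound and 3985 to 6097 CPM in unbound libraries, so the markers follow the label. Camk2a was the largest part of the excitatory sum, with a mean of 822.2 CPM bound and 3426 CPM unbound. All 10 excitatory markers were lower in bound libraries, from 4.16-fold for Prox1 to 70.9-fold for Neurod6. The sums of astrocyte (282.7 to 309.9 against 2164 to 3142 CPM) and oligodendrocyte markers (372.9 to 461.9 against 1415 to 1616 CPM) were also lower in bound libraries. The astrocyte marker Gfap did not pass the test (means of 59.3 against 58.1 CPM). The 10 microglia markers summed to 225.5 to 627.4 CPM in bound libraries, with replicate 2 highest, against 76.3 to 111.4 CPM in unbound libraries. In such bulk RNA, fewer cells of a type and less RNA per cell cannot be told apart. The groups also differ in ribosome association, since only the bound RNA was pulled down with ribosomes. Cell type and ribosome association therefore cannot be told apart in any difference given here. The part of cell make-up in the members' differences was not tested. Mitochondria-encoded genes took 0.0867% to 0.123% of counts in bound and 28.5% to 32.9% in unbound libraries, and leaving them and the abundant Gm42418 out changed no member's call.

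Of the 10 regulators, 6 differed between the groups. Elavl4, Elavl2, Nova2 and Elavl3 were higher in bound libraries, and Rbfox1 and Khdrbs3 were lower. Across all genes tested, 61.7% passed the same test, 31.0% higher and 30.7% lower in bound libraries, so 4 higher and 2 lower of 10 is near the background. The libraries of the groups did not overlap for the same 6 members, 4 of them higher and 2 lower in bound libraries, where 63.3% of all genes did not overlap (31.7% higher, 31.6% lower). The median log2 fold change of the 10 was −0.02, and that of all genes was −0.01. With a correction for exon length these were 0.32 and −0.06, so the place of the set relative to all genes depends on that choice. What follows is therefore about single genes and families, which moved in different directions. Scaled by library totals, the typical gene sat at 0.43 and 71.5% of calls were higher (50.3% with TMM). There 7 members were higher and 1 lower, where 47.5% of all genes were higher and 18.9% lower. Every direction given here for a single gene is thus relative to the TMM scaling. With library totals Rbfox3, Nova1, Ptbp2 and Khdrbs3 changed sign, while Rbfox1 stayed lower and Nova2 and the neuronal Elavl genes stayed higher.

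**Figure D1:**
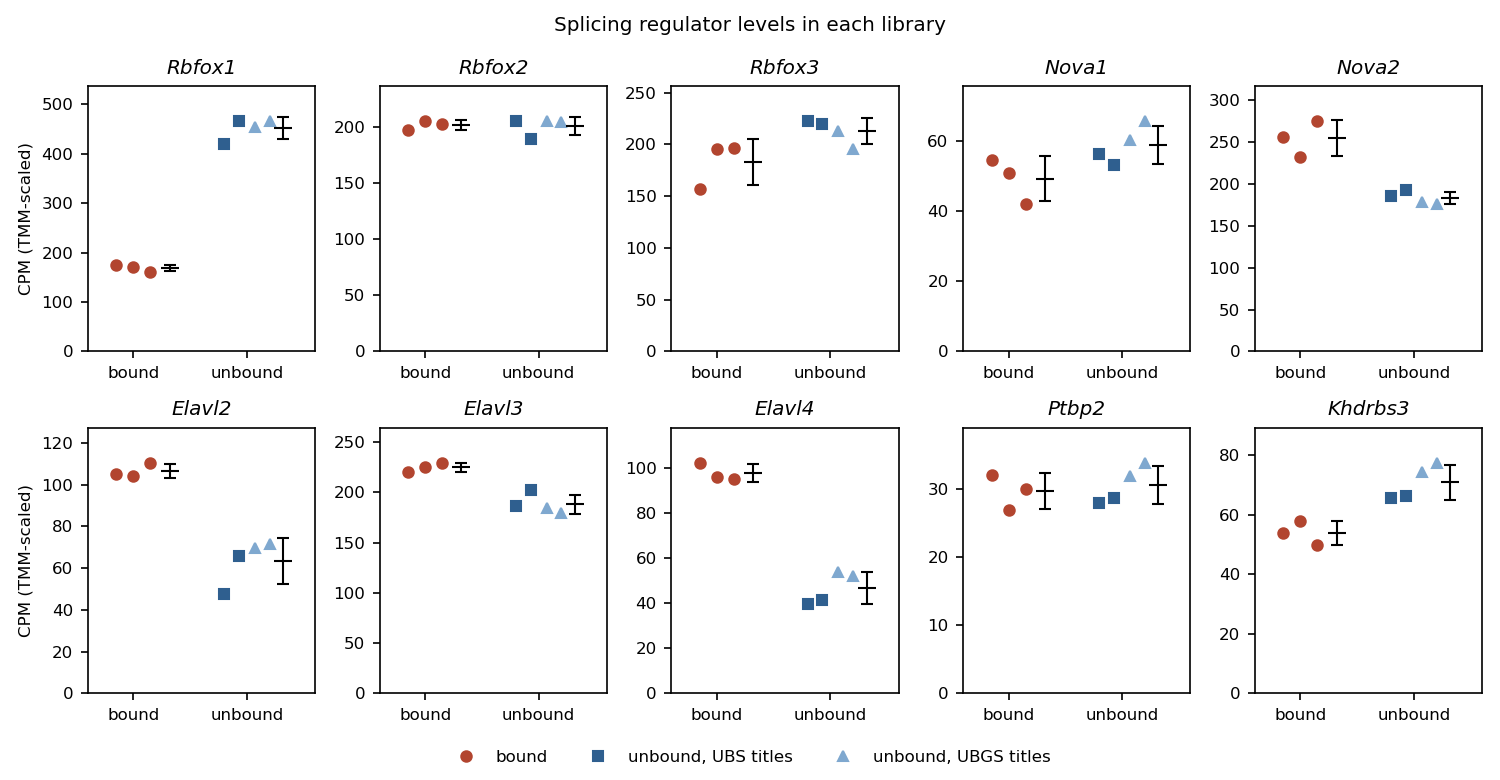
Level of each of the 10 regulators (y axis, TMM-scaled CPM, from 0) in 3 bound libraries (circles, left) and 4 unbound libraries (squares UBS, triangles UBGS, right); black dashes and bars are group mean and SD. The groups are apart for Rbfox1, Nova2, Elavl2, Elavl3, Elavl4 and Khdrbs3 and overlap for the other 4.

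In the Rbfox family, Rbfox1 passed the test as lower in bound libraries and the other 2 genes did not pass. Rbfox1 (ENSMUSG00000008658, plus strand of chromosome 16, 5885355 to 7411526, mm10), a splicing regulator whose loss in mice raises neuronal excitability, stood at 174, 169.8 and 161.5 CPM in bound libraries, against 420.5, 466.9, 453.8 and 466.8 CPM in unbound libraries. The bound libraries lay close together and far below every unbound one. The difference was 2.68-fold (log2 −1.42, SE 0.07, edgeR adjusted p = 2.83e-08), and it was the largest fall among the 10. It lay between −1.45 and −0.99 under all 17 alternatives run and passed the threshold in each.

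Rbfox2 (ENSMUSG00000033565, minus strand of chromosome 15, 77078990 to 77307004), the Rbfox gene with the widest expression outside the brain, did not separate the groups. Its levels were 197, 205.2 and 203 CPM in bound libraries and 205.6, 189.3, 205.7 and 204.5 CPM in unbound libraries (log2 0.003, SE 0.06, edgeR adjusted p = 0.966). Correcting for a trend of level with exon length moved it to 0.31 and library totals to 0.44, both past the threshold, so this gene's position depends on the scaling.

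Rbfox3 (ENSMUSG00000025576, minus strand of chromosome 11, 118489762 to 118911597) had 157.3, 195.2 and 196.8 CPM in bound libraries, against 222.9, 220, 212.5 and 195.6 CPM in unbound libraries. Unbound replicate 4 fell among the bound libraries, and bound replicate 1 lay well below the rest. The test did not pass (log2 −0.22, SE 0.09, edgeR adjusted p = 0.0541), and it did pass in 6 of 17 alternatives, in 5 of them lower and with library totals higher (0.22).

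Within a library, the ratio of 2 genes does not depend on how the library is scaled. It can still depend on their exon lengths, for which the ratios were not corrected. The Rbfox1 to Rbfox3 count ratio was 1.11, 0.870 and 0.821 in bound libraries, against 1.89, 2.12, 2.14 and 2.39 in unbound libraries. The groups did not overlap, and the ratio was 2.30-fold lower in bound libraries (two-sided exact permutation p = 0.0571, the smallest that 3 against 4 libraries allow, and 0.0857 adjusted over the 9 ratios computed). The Rbfox2 to Rbfox3 ratio overlapped between the groups, at 1.25, 1.05 and 1.03 in bound libraries and 0.923, 0.860, 0.968 and 1.05 in unbound libraries (exact permutation p = 0.114, 0.129 adjusted). Per kilobase of annotated exon, Rbfox1 made up 40.5% ± 2.67 of the family's level in bound libraries (SD, n = 3) and 62.6% ± 1.86 in unbound libraries (SD, n = 4). The family's summed level was 94.5 ± 3.39 CPM per kb in bound and 164 ± 3.43 CPM per kb in unbound libraries.

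**Figure D2:**
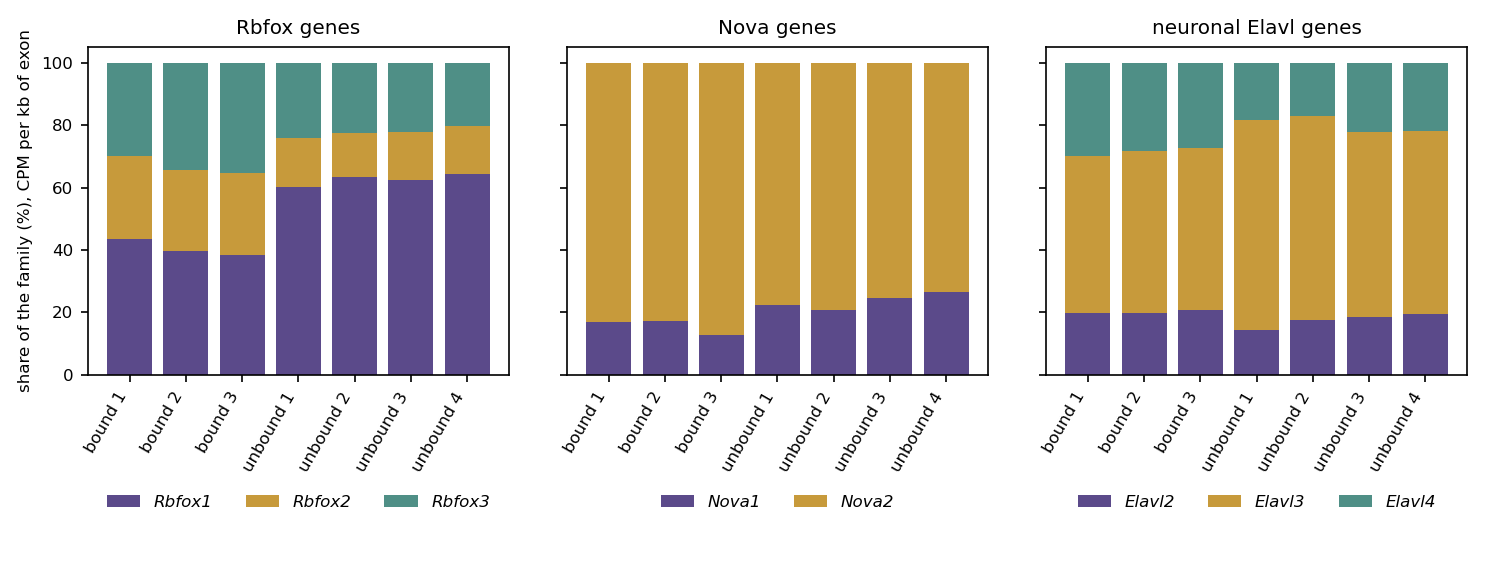
Share of each gene (y axis, percent of the family's summed CPM per kb of exon) in the Rbfox, Nova and neuronal Elavl families, 1 bar per library with bound libraries left. Rbfox1 takes 38.4% to 43.6% of its family in bound libraries and 60.1% to 64.4% in unbound libraries.

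The 3 neuronal Elavl genes were all higher in bound libraries, by different amounts, while their broadly expressed relative Elavl1 was lower. Elavl4 (HuD; ENSMUSG00000028546, minus strand of chromosome 4, 110203722 to 110351909), known for stabilising mRNAs such as Gap43 during axon growth, had 102.2, 95.7 and 94.9 CPM in bound libraries, against 39.4, 41.4, 53.7 and 52 CPM in unbound libraries. Every bound library exceeded every unbound one, and within the unbound group the UBS libraries were the lower pair. The difference was 2.09-fold (log2 1.06, SE 0.11, edgeR adjusted p = 9.57e-06), and it passed in all 17 alternatives, from 0.90 with UBGS libraries alone to 1.499 with library totals.

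Elavl2 (HuB; ENSMUSG00000008489, minus strand of chromosome 4, 91250763 to 91400785) stood at 105.2, 104.1 and 110.6 CPM in bound libraries, against 47.5, 65.9, 69.5 and 71.8 CPM in unbound libraries. Unbound replicate 1 was the lowest by a wide gap, and the groups did not overlap. The difference was 1.67-fold (log2 0.74, SE 0.12, edgeR adjusted p = 0.000322), and 0.65 without unbound replicate 1.

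Elavl3 (HuC; ENSMUSG00000003410, minus strand of chromosome 9, 22015005 to 22052023), the most abundant of the family per kilobase, had 220.7, 225.2 and 229.6 CPM in bound libraries, against 186.3, 201.9, 184 and 179.8 CPM in unbound libraries. The groups were apart by a small margin, and the difference was 1.198-fold (log2 0.26, SE 0.06, edgeR adjusted p = 0.00445). With the UBS libraries alone as the unbound group it stood at 0.21 and did not pass. Of its 50-nt stretches, 3.11% occur in transcripts of other genes, nearly all in Gm49318, a model on the same strand.

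Elavl1 (HuR), the family member made in most cell types, had a mean of 64.7 ± 7.68 CPM when bound (SD, n = 3), against 114 ± 5.26 CPM when unbound (SD, n = 4), which is 1.77-fold lower (log2 −0.82, SE 0.09, edgeR adjusted p = 1.35e-05). It stayed lower in all 17 alternatives. The summed level of the 3 neuronal genes was 63.6 ± 0.628 CPM per kb in bound and 43.6 ± 2.36 CPM per kb in unbound libraries.

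Ratios inside the Elavl family also separated the groups. The Elavl4 to Elavl3 ratio was 0.463, 0.425 and 0.413 in bound libraries, against 0.212, 0.205, 0.292 and 0.290 in unbound libraries, which is 1.76-fold higher in bound libraries. Bound libraries were tight, while the UBS and UBGS libraries formed separate pairs. The Elavl2 to Elavl3 ratio was 1.41-fold higher and the Elavl2 to Elavl4 ratio 1.24-fold lower in bound libraries, again without overlap. Each of these had the smallest exact permutation p the design allows (0.0571, and 0.0857 adjusted over 9 ratios). The Elavl2 to Elavl4 ratio follows from the other Elavl ratios, so these are not independent results. How often ratios of any 2 genes separate the groups was not computed.

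Nova2 was higher in bound libraries and Nova1 was not separated. The Nova proteins are KH-domain regulators first found as targets of antibodies in a paraneoplastic movement disorder, and they control exons of many inhibitory synapse genes. Nova2 (ENSMUSG00000030411, plus strand of chromosome 7, 18925888 to 18965319) had 256.4, 232.3 and 275.5 CPM in bound libraries, against 186, 192.6, 177.8 and 175.9 CPM in unbound libraries. The groups did not overlap, and the difference was 1.39-fold (log2 0.48, SE 0.07, edgeR adjusted p = 0.000189). Of its exon length, 31.7% overlaps Gm26821 on the opposite strand, which was also higher in bound libraries (107.8 ± 15.9 against 74.6 ± 5.91 CPM, log2 0.53). The strand setting of the counting is not given. It is therefore not known whether reads in the overlap were counted for Nova2, for Gm26821 or for neither.

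Nova1 (ENSMUSG00000021047, minus strand of chromosome 12, 46694517 to 46818929) had 54.7, 51 and 42.1 CPM in bound libraries, against 56.3, 53.1, 60.5 and 65.9 CPM in unbound libraries. Unbound replicate 2 lay below bound replicate 1, and the test did not pass (log2 −0.26, SE 0.11, edgeR adjusted p = 0.0576). It passed as lower in 3 of 17 alternatives, and 3.54% of its exon length overlaps Gm33869 on the same strand. The Nova1 to Nova2 ratio was 0.213, 0.219 and 0.153 in bound libraries, against 0.303, 0.276, 0.340 and 0.374 in unbound libraries. All bound ratios were below all unbound ones, by 1.67-fold on average (exact permutation p = 0.0571, 0.0857 adjusted). Per kilobase, Nova2 made up 84.3% ± 2.54 of the pair in bound and 76.4% ± 2.41 in unbound libraries. These shares depend on how reads in the overlap with Gm26821 were counted.

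Ptbp2 did not separate the groups, whereas both of its paralogs were lower. Ptbp2 (ENSMUSG00000028134, minus strand of chromosome 3, 119718742 to 119784466) is the polypyrimidine tract-binding protein that takes over from Ptbp1 as neurons differentiate and mostly represses exons. It had 32.1, 26.9 and 30 CPM in bound libraries, against 27.9, 28.7, 31.9 and 33.9 CPM in unbound libraries (log2 −0.05, SE 0.10, edgeR adjusted p = 0.723). The libraries of the groups were interleaved. With the length correction it stood at 0.32 and with library totals at 0.39, both past the threshold as higher.

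Ptbp1, the form of dividing and non-neuronal cells, had means of 14.5 ± 3.001 CPM bound, against 20.8 ± 0.911 CPM unbound (log2 −0.52, SE 0.14, edgeR adjusted p = 0.00759). The gene no longer passed with library totals (−0.0771), with the UBS or the UBGS libraries alone (−0.50 and −0.51), and against a 1.5-fold minimum. Opposite-strand genes overlap 20.7% of its exon length and 4.75% of its 50-nt stretches occur elsewhere, mostly in Gm4900. Ptbp3 had means of 20.8 ± 4.25 CPM bound, against 57.3 ± 2.84 CPM unbound, lower by 2.75-fold (log2 −1.46, SE 0.13, edgeR adjusted p = 3.01e-06). The Ptbp2 to Ptbp1 ratio was 2.13, 1.57 and 2.68 in bound libraries and 1.29, 1.47, 1.54 and 1.59 in unbound libraries, with an overlap between the groups (exact permutation p = 0.114, 0.129 adjusted).

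Khdrbs3 was lower and its relative Khdrbs1 higher in bound libraries. Khdrbs3 (SLM2, or T-STAR; ENSMUSG00000022332, plus strand of chromosome 15, 68928420 to 69101211) is a STAR-domain protein that controls an alternative exon of synaptic adhesion genes such as Nrxn2 and Nrxn3 in mouse brain. It had 53.9, 57.9 and 49.8 CPM in bound libraries, against 65.6, 66.2, 74.4 and 77.5 CPM in unbound libraries. The groups did not overlap (1.32-fold lower, log2 −0.40, SE 0.09, edgeR adjusted p = 0.00246), but the UBS libraries lay nearer to the bound ones, and with them alone as the unbound group the value was −0.29 and did not pass. With library totals it stood at 0.04, so the fall is one relative to the typical gene.

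Khdrbs1 (Sam68), the broadly expressed member, had means of 49.7 ± 4.92 CPM bound, against 32.5 ± 2.76 CPM unbound (log2 0.61, SE 0.10, edgeR adjusted p = 0.000275). The Khdrbs3 to Khdrbs1 ratio was 0.974, 1.25 and 1.05 in bound libraries, against 1.79, 2.13, 2.42 and 2.44 in unbound libraries. It was 2.01-fold lower in bound libraries without overlap (exact permutation p = 0.0571, 0.0857 adjusted). Khdrbs2 (SLM1) was low in both groups, with 2.77 ± 0.675 CPM bound, against 2.96 ± 0.265 CPM unbound (log2 −0.10, SE 0.24, edgeR adjusted p = 0.738).

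**Figure D3:**
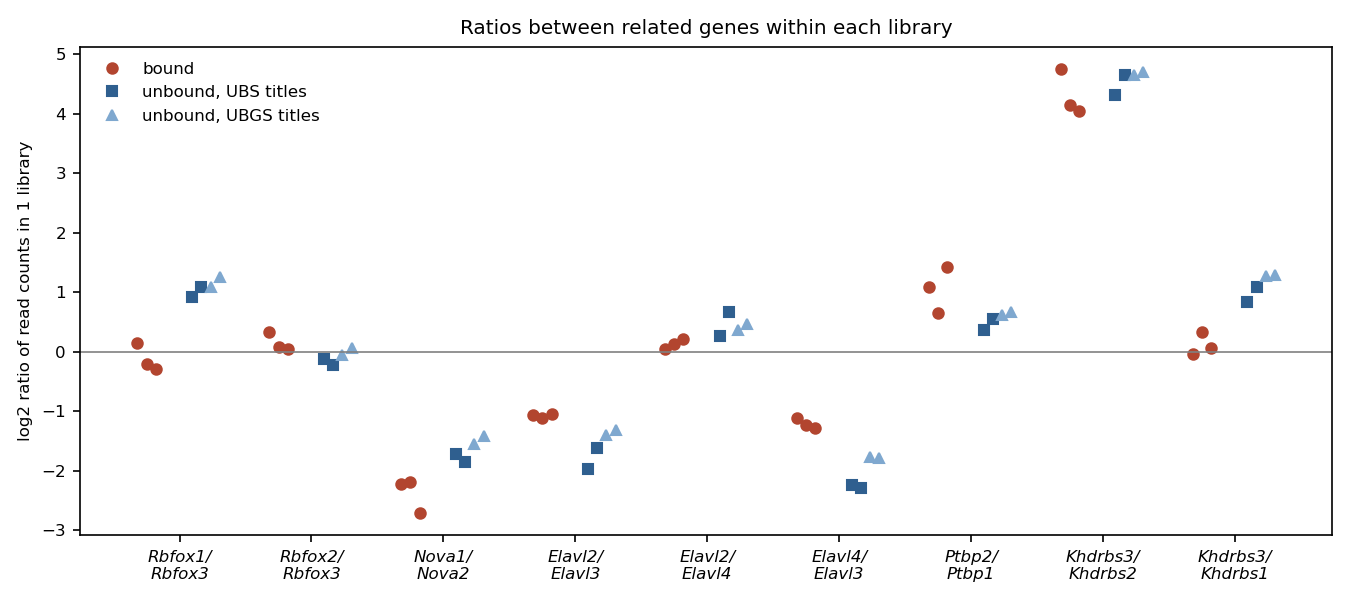
Log2 ratio of read counts of 2 related genes within 1 library (y axis), for 9 ratios, with 3 bound libraries left (circles) and 4 unbound libraries right (squares UBS, triangles UBGS). The groups do not overlap for 6 of the ratios, and Rbfox2/Rbfox3, Ptbp2/Ptbp1 and Khdrbs3/Khdrbs2 overlap. Of single genes 63.3% do not overlap, and the share among ratios of 2 genes was not computed. Several ratios share a gene, so the 9 are not independent.

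**Figure D4:**
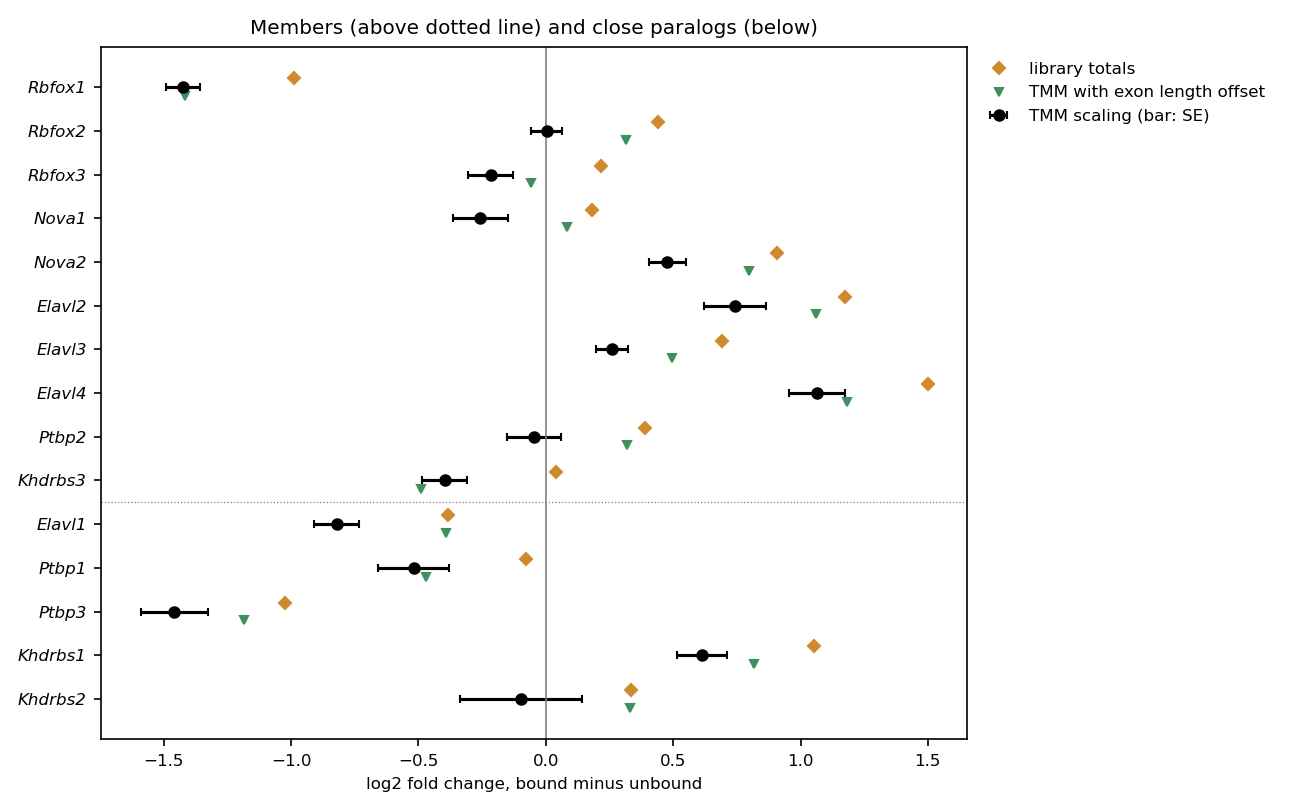
Log2 fold change, bound minus unbound (x axis), of the 10 members and 5 close paralogs under TMM (black, bar is SE), library totals (diamonds) and TMM with an exon length offset (triangles). Library totals move every gene up, from −0.40 to 0.04 for Khdrbs3, and Rbfox1 stays negative while Nova2 and the neuronal Elavl genes stay positive in all 3.

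Compared per kilobase of annotated exon, the order of the 10 genes' levels changed little at its ends. Rbfox1 was highest in both groups, at 38.3 ± 1.44 CPM per kb in bound and 102.7 ± 4.97 CPM per kb in unbound libraries. In bound libraries it was followed by Elavl3 (32.7 ± 0.645), Rbfox3 (31.5 ± 3.85), Nova2 (30.4 ± 2.59) and Rbfox2 (24.8 ± 0.522). The ranges of Elavl3, Rbfox3 and Nova2 overlapped, so their order is not resolved. In unbound libraries the order after Rbfox1 was Rbfox3 (36.6 ± 2.10), Elavl3 (27.3 ± 1.40), Rbfox2 (24.7 ± 0.983) and Nova2 (21.9 ± 0.921), each below the range of the gene before it. Ptbp2 was lowest in both groups, and Nova1 next by mean, although its range overlapped those of Elavl2 and Elavl4 in unbound libraries. Nova1 and Ptbp2 stood at 5.63 ± 0.739 and 3.23 ± 0.287 CPM per kb in bound and 6.74 ± 0.632 and 3.33 ± 0.304 CPM per kb in unbound libraries. These levels use M21 exon lengths, which need not be those of the annotation used for counting. That of Nova2 also depends on how reads in its overlap with Gm26821 were counted.

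Fold changes varied with exon length across protein-coding genes, with a median log2 of 0.92 under 1000 nt and −0.59 over 10000 nt. Over the 7239 protein-coding genes with exon lengths from 3662 to 9175 nt, the range of the 10 members, the median log2 fold change was −0.17, with 25.3% higher and 37.2% lower. Among the members, Nova2 (8372 nt) and Elavl2 (8313 nt) were higher, and with the length correction they stood at 0.80 and 1.06. Rbfox1 (4400 nt) stood at −1.42 with and without that correction, and 6 members were then higher and 2 lower, where 28.2% of all genes were higher and 30.5% lower.

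The title series of the unbound libraries were also compared. Between UBS and UBGS libraries, 0 of 10 members passed edgeR's test (0 by DESeq2, and 4 at an unadjusted p under 0.05, all lower in UBS), where 0.229% of 19256 genes passed and 16.8% had an unadjusted p under 0.05. Elavl4 had the largest value among the members, at log2 −0.39 (edgeR adjusted p = 0.132). Of the 44 genes that passed, 18 were higher and 26 lower in UBS libraries. Among those higher were Gad2, the gene of the Cre line (log2 0.71, edgeR adjusted p = 0.022), and the astrocyte marker Slc1a3 (log2 0.62, edgeR adjusted p = 0.0318). Without unbound replicate 1 or 2 the test called 5 and 6 members, where it called 23.5% and 36.9% of all genes tested, so these counts too are to be read against a far higher background. There the lone UBS library is assumed to vary like the UBGS pair, which lay closest of all pairs of libraries within a group. Set against the bound libraries, Elavl4 was higher by 1.27 relative to the UBS and by 0.90 relative to the UBGS libraries, and Elavl2 by 0.91 and 0.61. Rbfox1 stood at −1.40 and −1.43 and Nova2 at 0.43 and 0.55.

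Bound replicate 2 was the library highest in all 10 microglia markers. Without it the values were Elavl4 at 1.08, Elavl2 at 0.76, Nova2 at 0.54, Elavl3 at 0.26, Rbfox1 at −1.43 and Khdrbs3 at −0.45, all still past the threshold, and Rbfox3 also passed at −0.26.

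Other RNA-binding regulators, a list of 22 CELF, MBNL, SRRM, Musashi and related genes, were mostly lower in bound libraries. The list is labelled tissue-restricted, although it also holds widely expressed genes such as Celf1. Of 21 tested, 4 were higher and 14 lower, where 31.0% of all genes were higher and 30.7% lower. Their median was −0.42, against −0.01 over all genes. With library totals 5 were higher and 8 lower, where 47.5% of all genes were higher and 18.9% lower. With the length correction 5 were higher and 11 lower, where 28.2% of all genes were higher and 30.5% lower. Celf6, a brain-enriched CELF protein, was the largest rise, with 33.8 ± 1.35 CPM bound, against 7.11 ± 1.14 CPM unbound (log2 2.25, SE 0.13, edgeR adjusted p = 1.36e-07). Msi1, an RNA-binding protein known from neural progenitors, and Srrm3, which promotes neuronal microexons, were higher by 0.77 and 0.62. Raver2, a PTB-interacting protein, had 3.91 ± 0.715 CPM bound, against 41.0 ± 2.61 CPM unbound, and was 10.5-fold lower (log2 −3.39, SE 0.14, edgeR adjusted p = 1.07e-08).

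Qk (quaking), a regulator abundant in oligodendrocytes and astrocytes, was 3.76-fold lower (111.7 ± 16.0 against 419.8 ± 37.3 CPM), as were 9 of 10 astrocyte and all 10 oligodendrocyte markers. The part of those cells in its fall was not tested. Celf1, which is widely expressed, was 2.90-fold lower (86.2 ± 9.02 against 249.9 ± 11.2 CPM). Esrp1, an epithelial splicing factor, had a mean of 0 CPM in bound libraries and was not tested.

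General splicing factors moved in both directions. Of 13 SR and Tra2 genes, 2 (15.4%) were higher and 4 (30.8%) lower (median −0.17), against 31.0% and 30.7% of all genes. Srsf7 and Srsf12 were higher by 0.45 and 0.39, and Srsf11, Tra2b and Srsf9 lower by −1.62, −0.54 and −0.48. Srsf11 had means of 25.5 ± 1.28 CPM bound, against 78.6 ± 7.75 CPM unbound. With library totals 6 SR genes were higher and 1, Srsf11, lower, where 47.5% of all genes were higher and 18.9% lower.

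Of 17 hnRNP genes, 4 were higher and 4 lower, 23.5% each way and below the background (median 0.04). With library totals 13 were higher and 2 lower, where 47.5% of all genes were higher and 18.9% lower. Hnrnpk, Hnrnpa2b1 and Hnrnph3 were higher by 0.55, 0.40 and 0.39, and Hnrnpu, Hnrnpd and Hnrnpdl lower by −0.87, −0.68 and −0.68. Hnrnpk shares 14.5% of its 50-nt stretches with other genes, mostly with Gm7964, so its count is less certain. So is that of Tra2b, with 7.77% shared. Among the other called hnRNP genes, Hnrnpf (lower) shares 36.8% and Hnrnpa1 (higher) 28.2%. The Hnrnpa2b1 call was lost without bound replicate 1, and those of Srsf12, Tra2b and Hnrnph3 with the length correction.

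**Figure D5:**
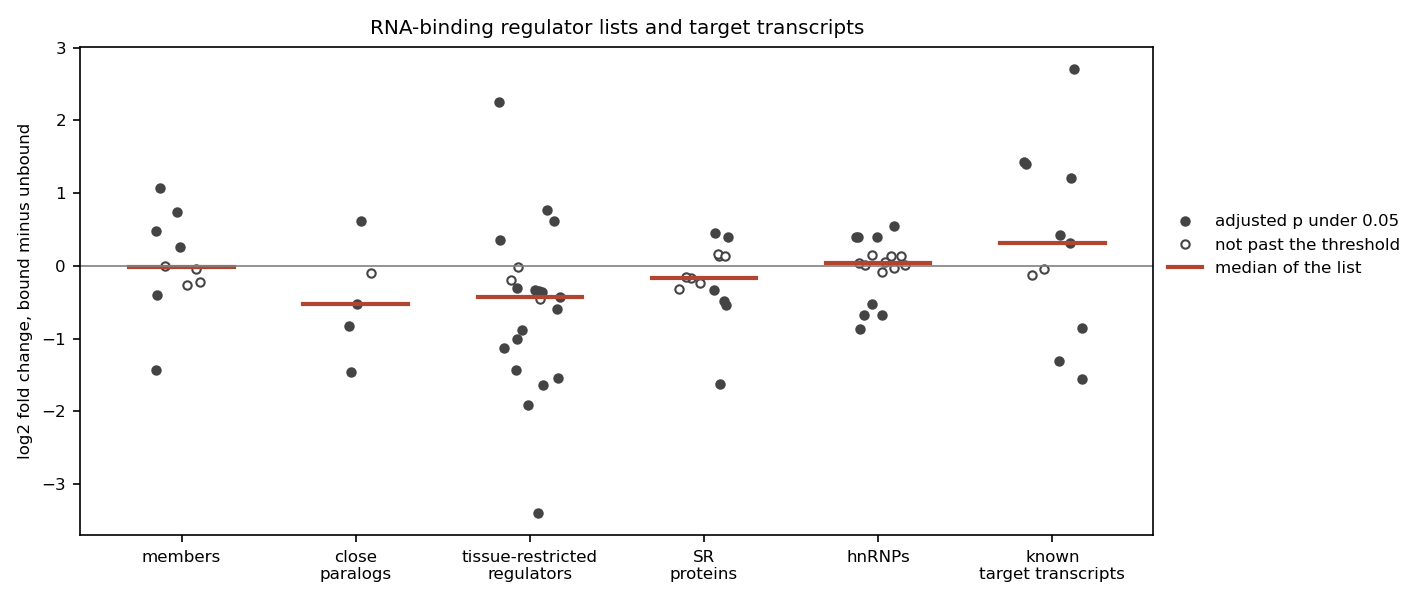
Log2 fold change, bound minus unbound (y axis), of each tested gene in 6 lists; filled points passed an adjusted p of 0.05, open points did not, and the red line is the list's median. In the list labelled tissue-restricted, 14 of 21 genes are lower in bound libraries, and Celf6 and the target transcript Glra2 are the highest points.

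Transcripts known as targets of these regulators were also read at gene level, without any view of their exons. Of the 11 described, 6 were higher and 3 lower (median 0.31, against −0.01 over all genes), where 31.0% of all genes were higher and 30.7% lower. Nrxn3 and Nrxn2, synaptic adhesion genes with an alternative exon under the control of Khdrbs3, were both higher, with Nrxn3 at 575.1 ± 29.5 CPM bound, against 213.1 ± 6.22 CPM unbound (log2 1.43), and Nrxn2 at 178.1 ± 9.43 against 77.0 ± 4.05 CPM (1.21). Both kept their direction with library totals and with the length correction. Of the Nova targets, Glra2, a glycine receptor subunit, was 6.51-fold higher (24.1 ± 1.76 against 3.72 ± 1.36 CPM) and Dab1, the Reelin adaptor, 2.93-fold lower (73.3 ± 15.2 against 214.9 ± 2.74 CPM).

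Gphn, the inhibitory synapse scaffold gephyrin, stood at −0.13 and did not pass, though with library totals it passed as higher (0.31). The Elavl target Gap43, a growth-associated protein, was 2.63-fold higher (290.7 ± 31.4 against 110.6 ± 19.1 CPM). Among Rbfox targets, Grin1 (0.42, with 13.5% of its exon length under the opposite-strand Grin1os) and Vamp1 (0.31) were higher and Cacna1c (−1.31) and Cacna1d (−0.86) lower, and with the length correction Cacna1c stood at −0.42 and Cacna1d at −0.29, which did not pass. The Vamp1 call was lost in 6 of 17 alternatives, among them those without bound replicate 3 (0.15) or unbound replicate 2 (0.27). Dlg4, whose RNA is repressed by Ptbp proteins through the skipping of an exon, which triggers decay, stood at −0.04 and did not pass. It did pass as higher with the length correction (0.56) and with library totals (0.40).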

How the data were processed

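The deposited table holds read counts per gene, not normalized, made by the authors with STAR 2.5.3a and HTSeq on mm10, per the submitters' processing notes. The sources used here do not give the annotation release, the strand setting or how multiply mapping reads were handled. IDs were matched without version to GENCODE M21 (GRCm38, the assembly of mm10), which named 37693 of 39017. Counts were tested in R 4.3.3 with edgeR 4.0.16 (filterByExpr, TMM, glmQLFit with robust estimation, glmQLFTest, Benjamini-Hochberg over all genes tested, threshold 0.05). Fold changes are log2, bound over unbound, with an SE derived from the F statistic. Alternatives were DESeq2 1.42.0, other scalings, filters and unbound subsets, a 1.5-fold minimum, an exon length offset and leaving out each library. Ratios of counts were compared with exact permutation tests (scipy 1.17.1). The code was tested on simulated data. No pair of libraries of 1 group looked like a second deposit (5.57 times the counting variance for the UBGS pair, 25.0 to 46.3 times for the others), so spread between libraries, more than depth, sets the precision. Exon overlaps and shared 50-nt stretches came from M21. Members and lists were chosen with earlier results of these data known. In the other lists, fold changes are given for up to 3 rises and 3 falls, the largest among called genes whose mean reached 5 CPM. Some listed target transcripts are not reported here, and the counts, median and plot of that list cover the others alone.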

Additional observations from a re-analysis of the deposited data

Results flagged for a closer look

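In the unbound group of 4, a value was marked where 1 library stood far from the nearest other relative to the group's range (past Dixon's 95% critical value). Of 52 levels and ratios examined, 4 were marked, where chance marks about 1 in 20. Rbfox2 was lowest in unbound replicate 2, at 189.3 CPM, with the other 3 unbound libraries at 204.5 to 205.7 CPM. Celf6 was lowest in unbound replicate 1, at 5.41 CPM. Hnrnpk was highest in unbound replicate 1, at 87 CPM, and Hnrnpa2b1 was lowest there, at 63.6 CPM.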

How the results depend on the processing

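No paired analysis was possible because the labels give bound and unbound libraries no shared numbers. Elavl4, Rbfox1, Elavl1 and Ptbp3 kept their direction and call in all 17 alternatives. With library totals 9285 genes were higher and 3704 lower, 7 members were higher and 1 lower, Rbfox2 stood at 0.44, Rbfox3 at 0.22, Nova1 at 0.18, Ptbp2 at 0.39, Khdrbs3 at 0.0394, Khdrbs2 at 0.33 without passing, and Gphn at 0.31 and Dlg4 at 0.40, both past the threshold. With relative log expression size factors and with DESeq2, 4 members were lower, where 31.7% and 32.7% of all genes were lower. Rbfox2 stood there at −0.0247 and −0.0246, Rbfox3 at −0.24 in both, and Nova1 at −0.29 and −0.28. With the length offset Rbfox2 stood at 0.31, Nova1 at 0.0832, Ptbp2 at 0.32, Khdrbs2 at 0.33 and Dlg4 at 0.56. With UBS libraries alone 1 member was lower, where 24.1% of all genes were lower. Elavl3 stood there at 0.21, Khdrbs3 at −0.29 and Ptbp2 at 0.0674. With UBGS libraries alone Rbfox2 stood at −0.00342 and Dlg4 at 0.00957. Against a 1.5-fold minimum 3246 genes were higher and 3608 lower, with 1 member in each direction, and Nova2 (0.48), Elavl2 (0.74), Elavl3 (0.26) and Khdrbs3 (−0.40) no longer passed. Leaving out 1 library at a time gave 4 higher and 2 to 3 lower members. Of all genes, 28.7% to 31.3% were then higher and 27.4% to 29.9% lower. Rbfox2 ranged from −0.0126 to 0.0341, Rbfox3 from −0.27 to −0.11 and Nova1 from −0.34 to −0.16. Ptbp2 ranged from −0.10 to 0.024, Khdrbs2 from −0.24 to 0.0936 and Dlg4 from −0.0954 to 0.0215. Rbfox3 passed there without unbound replicate 4 and without bound replicate 2 or 3, and Nova1 without bound replicate 1. Between UBS and UBGS libraries 44 genes differed, against 301 with DESeq2, 22 with library totals, 104 without a filter and 16 to 7389 with 1 library left out, where 0 to 6 members differed. The 9 paralog ratios kept their direction in the 10 alternatives run on each, which were a pseudocount, unbound subsets and leaving out each library. The length offset was not run on the ratios. It moved single genes by unlike amounts, such as Elavl2 from 0.74 to 1.06 and Elavl4 from 1.06 to 1.18. The cause of these changes was not tested.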
